A study of Mus musculus with 89 samples.

Results

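Cxcl1, Cxcl2, Cxcl3, Cxcl5 and Cxcl15 encode ligands that draw neutrophils, Cxcr2 a receptor of such ligands and Csf3 the neutrophil growth factor G-CSF. These 7 genes were followed across the lungs of mice given copper oxide nanomaterials. The members were all probes whose accession maps to one of these 7 gene symbols, out of 22911 genes measured, and each of the 7 genes had 1 probe. Lung RNA of female BALB/c mice, obtained at 6 to 8 weeks of age, was hybridised in 89 samples that fell into 26 groups. RNA of 2 samples was pooled for each. Per the study's methods the lungs were lavaged first, and the RNA came from part of the left lobe. All mice, controls included, had been sensitised with ovalbumin (OVA) and alum on days 1 and 10, and were then challenged either with OVA in PBS, which produces allergic airway inflammation, or with PBS alone.

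The PBS group (7 samples) and the OVA group (8 samples) received no nanomaterial. The other 24 groups received CuO, its carboxylated form CuO COOH, its methylaminated form CuO NH3 or its polyethylene glycol form CuO PEG, at 2.5, 10 or 40 μg per mouse and day, with the PBS challenge or with the OVA challenge (written "+ OVA"). Material and challenge were given by oropharyngeal aspiration on 4 consecutive days and lungs were taken 24 h after the last. CuO NH3 10 and CuO PEG 10 had 4 samples each and the other exposed groups 3. The PBS group is therefore a sensitised group without allergic inflammation, not a naive one. Doses were matched by mass of material, and per the study's methods the materials differed in how much copper that mass held. The p-values below measure the spread between these pools.

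Cxcr2 is a chemokine receptor of circulating neutrophils, and its ligands carry the ELR sequence motif and bind to glycosaminoglycans on the vessel wall, where they stop rolling neutrophils and guide them into tissue. In the mouse, Cxcl1 (KC), Cxcl2 (MIP-2) and Cxcl3 (DCIP-1) are inducible products of macrophages, epithelium and endothelium, Cxcl5 (LIX) comes mainly from lung epithelium, and Cxcl15 (lungkine) is made constitutively by airway and alveolar epithelium. Csf3 acts upstream on the bone marrow, where it drives granulocyte production and release. Interleukin 1, tumour necrosis factor and Toll-like receptor signals switch on the inducible ligands through NF-kappaB.

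Cxcl1, Cxcl2, Cxcl3 and Cxcl15 are neighbours on chromosome 5, and their promoters are shown because those of the inducible ligands share NF-kappaB-like letters that were not found in the Cxcl15 window. Promoters were found in RefSeq's annotation of GRCm38.p6 for 5 of the 7 genes, and Cxcl5 and Csf3 had no entry. The 250 bases upstream of the start are printed 5′ to 3′ on the plus strand, which is the gene's own strand in each case, in lower case with every match to GGGNNNTTCC on either strand in capitals. They lie at chr5:90890995-90891244 for Cxcl1, chr5:90903649-90903898 for Cxcl2, chr5:90785851-90786100 for Cxcl3 and chr5:90794284-90794533 for Cxcl15.
Cxcl1: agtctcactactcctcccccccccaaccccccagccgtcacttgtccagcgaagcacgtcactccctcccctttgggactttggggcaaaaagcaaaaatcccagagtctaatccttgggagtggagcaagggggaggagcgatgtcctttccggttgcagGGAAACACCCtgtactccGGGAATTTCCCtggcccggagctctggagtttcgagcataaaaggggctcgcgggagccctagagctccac
Cxcl2: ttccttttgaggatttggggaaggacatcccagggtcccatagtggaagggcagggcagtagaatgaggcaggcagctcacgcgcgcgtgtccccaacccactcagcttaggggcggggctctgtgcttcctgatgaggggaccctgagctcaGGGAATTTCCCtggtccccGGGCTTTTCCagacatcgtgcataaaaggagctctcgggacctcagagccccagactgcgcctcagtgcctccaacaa
Cxcl3: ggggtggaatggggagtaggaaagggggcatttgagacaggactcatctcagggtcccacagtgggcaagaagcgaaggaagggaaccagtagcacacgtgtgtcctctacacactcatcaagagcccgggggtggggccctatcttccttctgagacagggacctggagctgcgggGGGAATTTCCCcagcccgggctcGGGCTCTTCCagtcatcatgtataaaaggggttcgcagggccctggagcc
Cxcl15: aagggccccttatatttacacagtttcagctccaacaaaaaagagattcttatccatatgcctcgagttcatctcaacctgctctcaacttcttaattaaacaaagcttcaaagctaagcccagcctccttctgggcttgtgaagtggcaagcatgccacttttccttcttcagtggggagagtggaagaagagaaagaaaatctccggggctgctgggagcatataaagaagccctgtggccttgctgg
Cxcl1, Cxcl2 and Cxcl3 each held 3 matches, 2 of which overlap on opposite strands. In Cxcl1 the overlapping pair lies from -71 to -61 relative to the start, in Cxcl2 from -97 to -87 and in Cxcl3 from -73 to -63. At least 1 match was found in 4.65% of the 32851 promoters of that length in the annotation, and at least 3 in 6 promoters (0.0183%). Cxcl15 and Cxcr2 (chr1:74153744-74153993) had no match in the window. The letters TATAAA, present in 12.4% of all promoters, were found in Cxcl3 from -30 to -25 and in Cxcl15 from -27 to -22. A match is a description of the letters and not a measured binding site.

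On the arrays each sample occupied 1 dye channel (Cy3 or Cy5), and 43 of 46 arrays held 2 samples and 3 held 1. Median foreground ranged from 62 to 203 intensity units, 46.7 to 68.8% of spots were well above background, and none was saturated. Every sample correlated with the rest of its group at r of 0.994 to 0.999. That r was taken after removal of the batch terms, over genes well above background in at least 45 samples. The lowest share of spots well above background was in CuO NH3 2.5 + OVA replicate 3. CuO and CuO COOH groups were on slides 1 to 3 and CuO NH3 and CuO PEG groups on slides 4 to 6, with controls on both. Levels are normalised log2 intensities after removal of dye, slide and array position. A log2 difference of 1 is a 2-fold change, and levels of different genes are not compared because each rests on a different probe. Differences against controls come from limma fits with dye and hybridisation (the array that 2 samples share) as terms, and a gene is said to have passed the test, risen or fallen when its Benjamini-Hochberg adjusted p over all 22911 genes was under 0.05 and its log2 change beyond 0.58. Fitted changes can be larger than the difference of the mean levels, because they rest on pairs of samples on the same array, and for each change that passed, the value under the other set of terms is given where it differed by over 1.5 times. Of 315 member values that did not pass, 192 moved by over 1.5 times under the other terms and 57 changed sign. Values near 0 exceed such a ratio easily, so these counts are not set against those of values that passed. Statements that groups do not overlap refer to levels after removal of the batch terms, and the share of all genes that separate in the same way was not counted. In RNA of lavaged lung tissue, more cells of a type and more RNA per cell cannot be told apart.

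Detection set what could be said. Cxcl1, Cxcl15 and Cxcr2 were well above background in all 89 samples. Cxcl2 and Cxcl3 were so in 1 of 7 PBS controls each and Cxcl5 in 4 of 7, while none of the 3 reached it in any CuO PEG 2.5 sample, so the low end of these genes is near the floor of the array. Csf3 was well above background in 1 of 89 samples, a CuO NH3 40 + OVA sample.

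**Figure D1:**
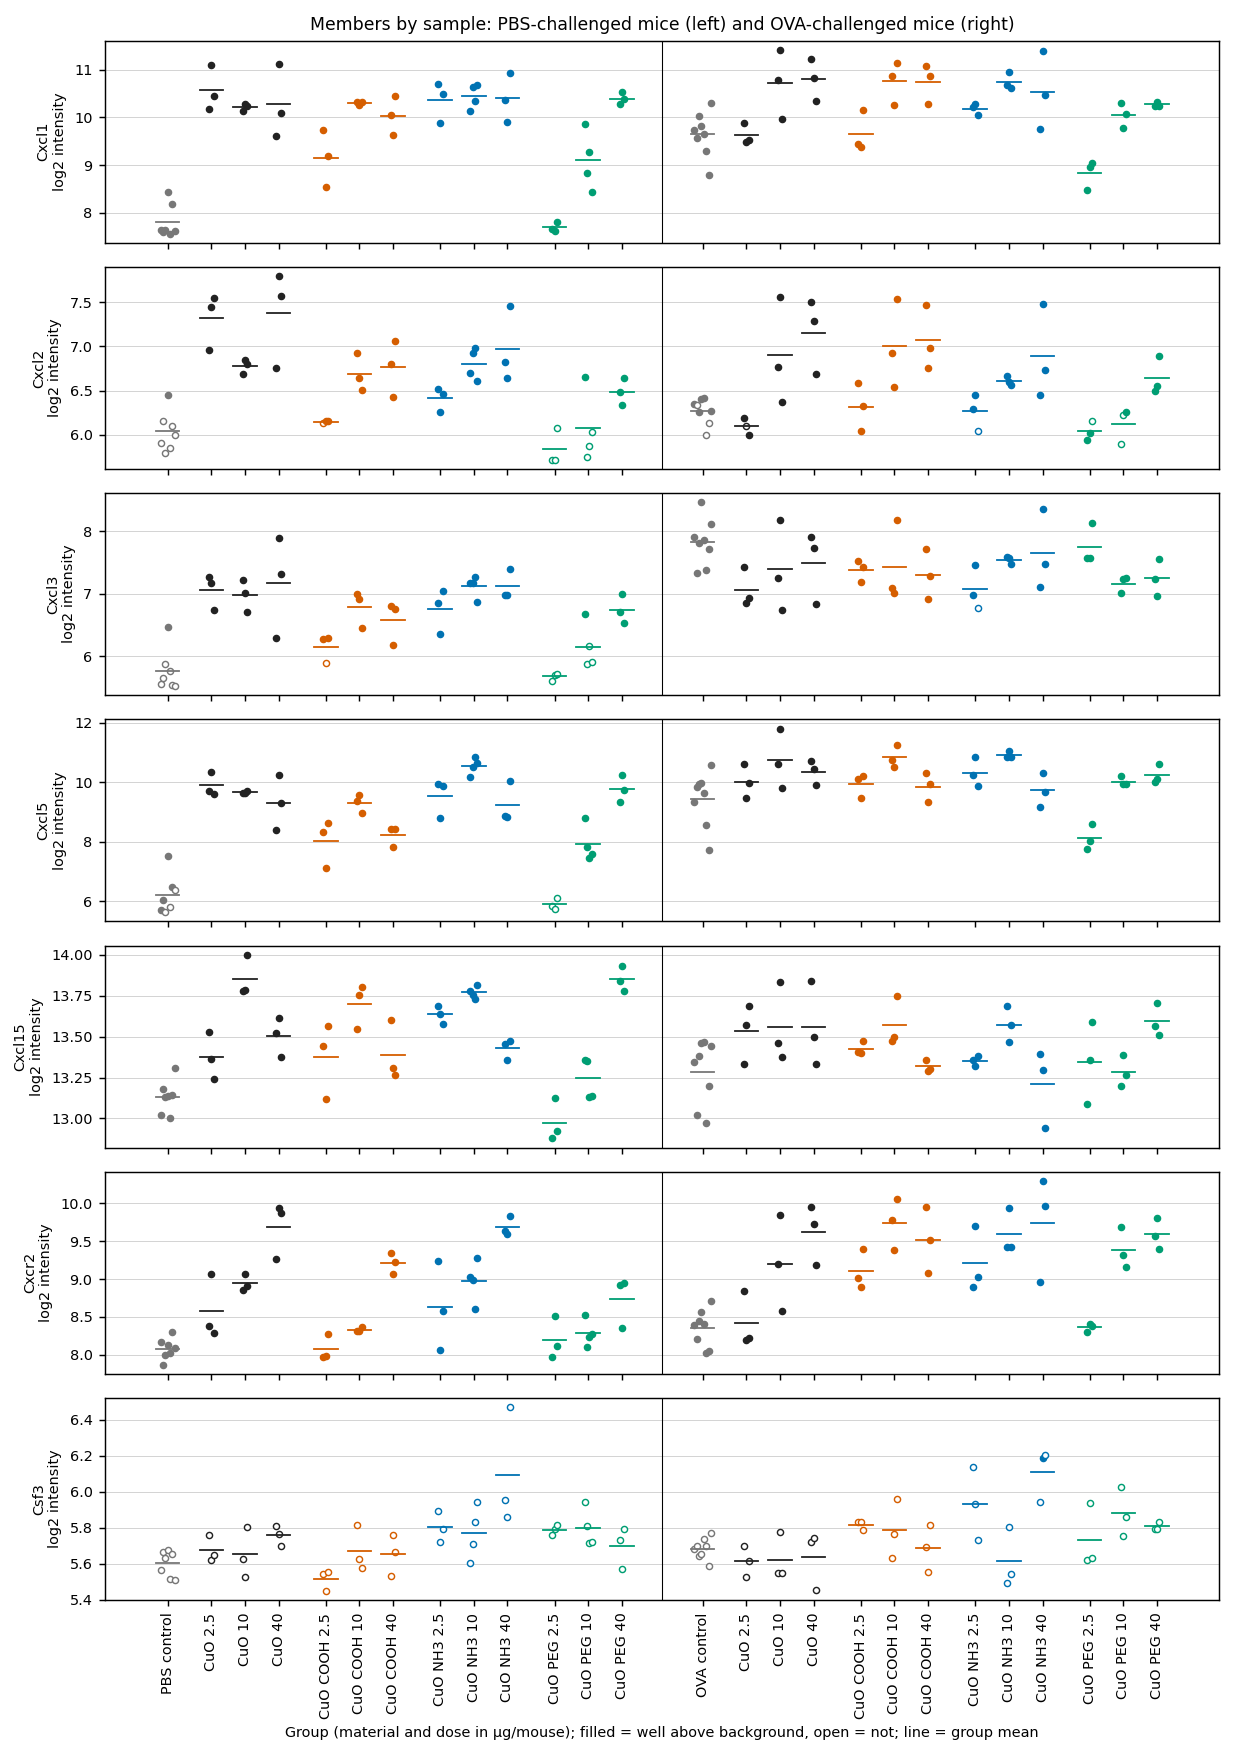
Normalised log2 intensity (y axis, a separate range for each gene) of the 7 genes in all 89 samples by group (x axis, dose in μg per mouse), PBS-challenged on the left and OVA-challenged on the right; points are samples, filled if well above background, and lines are group means. Cxcl1 and Cxcl5 sit low in the PBS and CuO PEG 2.5 groups and high in most others, whereas nearly all Csf3 points are open.

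The OVA challenge by itself went with more of 3 ligands. Cxcl1, Cxcl3 and Cxcl5 rose in OVA against PBS controls, 3 of the 7 genes where 5.22% of all genes passed the test. Cxcl1 lay between 7.56 and 8.43 in the 7 PBS samples (median 7.64) and between 8.80 and 10.29 in the 8 OVA samples (mean 9.65 ± 0.45 SD against 7.81 ± 0.35). The 2 groups did not overlap, though they did before the batch terms were removed, and the fitted change was 2.26 (SE 0.32, adjusted p = 2.85e-05). Cxcl3 was between 5.52 and 6.47 in PBS and between 7.33 and 8.47 in OVA, again without overlap, with a change of 2.13 (SE 0.33, adjusted p = 7.16e-05). For Cxcl5 the PBS samples ran from 5.63 to 7.52 and the OVA samples from 7.71 to 10.58, and the change was 3.54 (SE 0.41, adjusted p = 1.61e-06). Cxcl2, the close relative of Cxcl1 and Cxcl3, did not pass the test: its PBS range of 5.79 to 6.45 overlapped its OVA range of 5.99 to 6.41, with a change of 0.25 (SE 0.21, adjusted p = 0.567). Cxcl15 (0.13), Cxcr2 (0.27) and Csf3 did not pass it either. On slides 4 to 6 alone, which hold 8 of the 15 controls, 1 of the 3 genes passed, Cxcl3. Of the 17 measured neutrophil markers 2 were higher in OVA controls, Retnlg (1.04) and Lcn2 (1.41), and 5 of 7 markers of monocytes and inflammatory macrophages were higher, with none lower in either list. Their part in the ligand changes was not tested.

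In PBS-challenged mice Cxcl1 and Cxcl5 rose after most exposures and the other ligands after fewer. Over the 12 exposed groups and 7 genes, 36 of 84 differences passed the test and all 36 were increases. Cxcl1 rose in 11 groups, Cxcl5 in 10, Cxcl2 in 6, Cxcl3 in 5, and Cxcl15 and Cxcr2 in 2 each, whereas Csf3 passed in none. At an unadjusted p under 0.05 the count was 56 of 84, with 3 of 12 for Csf3. All 12 comparisons share the same PBS controls. Of these, replicates 1 to 3 were on the slides of CuO and CuO COOH, and replicates 4 to 7 on those of CuO NH3 and CuO PEG. With hybridisation as a term, controls on other slides can count for little. For example, Cxcl3 after CuO COOH 40 was 1.62, and 2.87, 1.62 and 1.52 without PBS replicates 1, 2 and 3. It stayed at 1.62 to 1.63 without replicate 4, 5 or 6.

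CuO at 2.5 μg raised 3 of the 7 genes where 0.903% of all genes passed, at 10 μg 5 where 3.61% passed, and at 40 μg 5 where 14.1% passed. CuO COOH raised 2, 4 and 4 at the same doses, against backgrounds of 0.358%, 3.61% and 10.3%. CuO NH3 raised 2, 3 and 5, against 0.96%, 3.32% and 13.2%. CuO PEG raised 0, 1 and 2, against 0%, 0.428% and 2.23%. At 2.5 μg of CuO PEG none of the 7 genes had an unadjusted p under 0.05 in the limma fit. The number of genes passing over the whole array thus climbed with dose for each material, while Cxcl1 and Cxcl5 had already passed at 2.5 μg for CuO, CuO COOH and CuO NH3.

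Cxcl1 was raised by every exposure but CuO PEG 2.5. After CuO 2.5 the 3 samples read 10.17, 10.44 and 11.10, all above the highest PBS sample at 8.43, with a change of 3.28 (SE 0.48, adjusted p = 0.00104). After CuO NH3 2.5 they read 9.87, 10.49 and 10.71, with a change of 2.87 (SE 0.45, adjusted p = 0.00202). In contrast, CuO PEG 2.5 gave 7.62, 7.66 and 7.80, inside the PBS range, with a difference of 0.10 (SE 0.51, adjusted p = 1) that was -0.12 with slide and position as terms. For CuO PEG the level stepped up with dose. CuO PEG 10 gave 8.44, 8.84, 9.27 and 9.86, a change of 1.15 (SE 0.27, adjusted p = 0.0375), and the 4 samples lay just above the PBS range, which they overlapped before the batch terms were removed. CuO PEG 40 gave 10.27, 10.38 and 10.53, a change of 3.49 (SE 0.45, adjusted p = 6.47e-05). The change was 3.85 (SE 0.54, adjusted p = 2.03e-05) after CuO 40 and 2.93 (SE 0.38, adjusted p = 3.66e-06) after CuO NH3 40, where samples spread from 9.61 to 11.13 and from 9.89 to 10.94. With slide and position as terms the CuO changes were smaller, 2.41 in place of 3.99 at 10 μg and 2.46 in place of 3.85 at 40 μg, and still passed. CuO COOH 2.5 (8.54, 9.19 and 9.73) passed with 2.79 (SE 0.58, adjusted p = 0.0322) but not with those terms, where its change was 1.34. In the fit with hybridisation this group rests on 2 samples, since replicate 2 was alone on its array, and the change passed in 6 of the 10 fits that left out 1 sample. The increase after CuO PEG 10 passed in 5 of the 11 fits that left out 1 sample each.

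Cxcl5, the epithelial ligand, had group means that spanned from 5.89 in CuO PEG 2.5 to 10.91 in CuO NH3 10 + OVA. In the order of the 26 means the widest gap, 1.69, separated the PBS group (6.22 ± 0.66) from CuO PEG 10 (7.91 ± 0.61), which itself did not pass against PBS (1.35, SE 0.34, adjusted p = 0.0624). The CuO 10 samples were at 9.65, 9.66 and 9.70, with an SD of 0.03 after removal of the batch terms but 0.40 before it. Their fitted change was 5.22 (SE 0.71, adjusted p = 0.00013), which was 3.45 with slide and position as terms. In CuO NH3 10 the 4 samples ran from 10.18 to 10.86, with a change of 4.73 (SE 0.49, adjusted p = 1.57e-06) that moved little under the other terms, to 4.33. The mean level was highest at 10 μg for CuO COOH and CuO NH3 and at 40 μg for CuO PEG. For CuO the mean level was highest at 2.5 μg (9.90 ± 0.41), whereas the fitted change with hybridisation as a term was lowest there, at 3.97 beside 5.22 at 10 μg and 4.47 at 40 μg, so the order of its doses depended on the batch terms. All 3 samples of CuO NH3 40 (8.83, 8.88 and 10.04) lay below those of CuO NH3 10, and the change was 3.36 (SE 0.48, adjusted p = 1.38e-05). CuO COOH 40 gave 7.83, 8.43 and 8.45, all above the PBS maximum of 7.52, a change of 3.26 (SE 0.66, adjusted p = 0.00161) or 2.01 with slide and position as terms. CuO PEG 2.5, at 5.74, 5.84 and 6.11, was not well above background in any sample and overlapped the PBS range. Its difference from PBS did not pass, and no size is given for it. CuO PEG 40, at 9.34, 9.73 and 10.25, rose by 4.10 (SE 0.57, adjusted p = 0.000149). After CuO COOH 2.5, 1 of the 3 samples (7.11) fell inside the PBS range, and the change of 3.65 passed (adjusted p = 0.0274) but not at the 1.80 that slide and position as terms gave. That change too rests on 2 samples and passed in 6 of 10 fits that left out 1 sample.

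Cxcl2 and Cxcl3 rose in fewer groups than Cxcl1 and Cxcl5. With 1 of 7 PBS controls well above background for each, their changes are measured against a level near the floor of the array. Cxcl2 rose at all 3 doses of CuO, from a PBS range of 5.79 to 6.45 to 6.96, 7.45 and 7.55 at 2.5 μg, 6.69, 6.80 and 6.85 at 10 μg, and 6.75, 7.57 and 7.80 at 40 μg. All 9 samples lay above every PBS sample. The changes were 1.58 (SE 0.31, adjusted p = 0.0101), 1.98 (SE 0.37, adjusted p = 0.00247) and 2.45 (SE 0.35, adjusted p = 2.71e-05), of which the last 2 were 0.74 and 1.34 with slide and position as terms. CuO NH3 raised Cxcl2 at 40 μg alone among its doses, by 1.07 (SE 0.25, adjusted p = 0.00227), from samples at 6.64, 6.83 and 7.45. CuO COOH raised it by 1.94 at 10 μg and 1.58 at 40 μg. These were 0.65, which did not pass, and 0.73, which did, with slide and position as terms, and 1 of the 3 CuO COOH 40 samples (6.43) overlapped the PBS range. No dose of CuO PEG passed, and CuO PEG 40 gave 6.34, 6.48 and 6.64, a difference of 0.59 (SE 0.29, adjusted p = 0.387).

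Cxcl3 did not pass at 2.5 μg of any material. After CuO 10 its samples read 6.70, 7.00 and 7.22, above the PBS maximum of 6.47, with a change of 2.47 (SE 0.57, adjusted p = 0.0134). After CuO 40 they read 6.29, 7.32 and 7.89, so 1 sample overlapped, with a change of 2.48 (SE 0.55, adjusted p = 0.00226). With slide and position as terms these were 1.21 and 1.40. CuO NH3 40 gave 6.98, 6.99 and 7.40 and a change of 1.37 (SE 0.39, adjusted p = 0.0102), which was 1.35 under the other terms. The CuO COOH changes, 2.14 at 10 μg (adjusted p = 0.0395) and 1.62 at 40 μg (adjusted p = 0.0449), were the least stable. The fitted values came to 1.02 and 0.81 with slide and position as terms, the second no longer passing, and the second passed in 2 of the 10 fits that left out 1 sample. The PBS maximum of 6.47 was a single sample, replicate 4, and the next was at 5.87.

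The CuO 40 changes of Cxcl1, Cxcl2, Cxcl3, Cxcl5 and Cxcr2 did not pass when CuO 40 replicate 2 was left out, with Cxcl1 then at 2.40 in place of 3.85 and Cxcl3 at 1.13 in place of 2.48. Without CuO COOH 10 replicate 3 the changes of Cxcl1, Cxcl2, Cxcl3 and Cxcl5 in that group did not pass, with Cxcl1 at 2.23 in place of 3.63 and Cxcl3 at 1.25, nor did those of Cxcl2, Cxcl3 and Cxcl5 after CuO COOH 40 without its replicate 1, with Cxcl3 at 1.08. Without PBS replicate 1 the CuO COOH 40 changes were larger, 4.81 in place of 2.85 for Cxcl1, 2.39 in place of 1.58 for Cxcl2 and 2.87 for Cxcl3, the last of which did not pass. The changes of Cxcl2 and Cxcl3 after CuO NH3 40 did not pass without its replicate 1 or without PBS replicate 5, and Cxcl2 after CuO 2.5 did not without its replicate 3. Of the 36 increases, 32 passed with slide and position as terms, 24 under all of the other settings and 15 whichever sample was left out. The change was smaller by over 1.5 times with slide and position as terms in 14 of the 36, and all 14 were of CuO or CuO COOH.

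**Figure D2:**
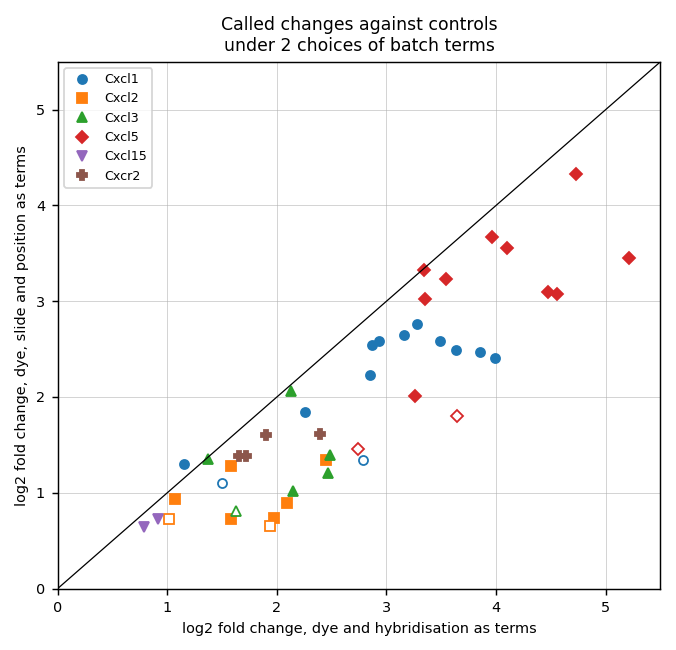
Each point is a gene that passed the test in 1 exposed group against its controls, or in OVA against PBS controls. The x axis is the log2 change with dye and hybridisation as terms, and the y axis that with dye, slide and position. Open points no longer passed and the line marks equal values. Most points lie below the line, and the ratio of y to x had a median of 0.716 over the 36 increases in PBS-challenged mice.

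Cxcl15, the constitutive lung epithelial ligand, moved little. It had a median of 13.13 and a maximum of 13.31 in PBS and its group means spanned 0.88 in all, from 12.98 in CuO PEG 2.5 to 13.86 in CuO 10. It rose at 10 μg of CuO (13.78, 13.79 and 14.00, a change of 0.92, SE 0.26, adjusted p = 0.0475) and of CuO NH3 (13.73, 13.75, 13.78 and 13.82, a change of 0.79, SE 0.18, adjusted p = 0.00916). Neither group overlapped with PBS. At 40 μg of the same materials the levels were lower, at 13.38 to 13.61 and 13.36 to 13.47, and neither passed. For CuO PEG the highest level was at 40 μg, at 13.78, 13.84 and 13.93, with a difference of 0.60 (SE 0.21, adjusted p = 0.152). The CuO 10 increase passed in 3 of 10 fits that left out 1 sample, and both increases were lost when only the controls on the same slides were used.

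Cxcr2, the receptor, rose at the highest dose of CuO and CuO NH3. From a PBS range of 7.87 to 8.30, CuO 40 gave 9.27, 9.88 and 9.94, a change of 2.39 (SE 0.53, adjusted p = 0.0024). CuO NH3 40 gave 9.60, 9.64 and 9.83, a change of 1.90 (SE 0.37, adjusted p = 0.000484). In both groups every sample was above every PBS sample. CuO COOH 40 (9.06, 9.22 and 9.35) was also above the PBS range without passing, at 1.53 (SE 0.51, adjusted p = 0.052), and so was CuO PEG 40 (8.35, 8.92 and 8.95), at 1.42 (SE 0.44, adjusted p = 0.0983). The first was 1.13 and passed with slide and position as terms, and the second was 0.66 and did not. At 2.5 μg no group passed, and CuO NH3 2.5 was spread from 8.06 to 9.25.

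Many of the listed neutrophil genes, though not all, rose where the receptor did. Of the 18 listed neutrophil markers 17 were measured, and after CuO 40, 10 were higher and 2 lower than in PBS, with a median change of 1.62 where the median of all genes was 0.01. Lcn2 (4.01), Ltf (3.67), Stfa2l1 (3.50), Mmp8 (3.45) and Cd177 (3.20), all on the neutrophil list, were among those that rose. Lcn2 also passed after CuO 2.5 (3.61), where Mmp8 (0.13), Stfa2l1 (0.04) and Cd177 (1.56) did not. It passed after CuO PEG 10 as well (1.64), where Mmp8 (0.32), Stfa2l1 (-0.15) and Cd177 (0.53) did not. A rise of Lcn2 alone is therefore not read as more neutrophils. Mpo (0.03), Elane (0.02) and Ngp (0.17), granule genes of immature neutrophils, did not pass, and neither did Camp (0.78) and Retnlg (-0.26). The 2 that fell were Fpr1 (-1.74), the formyl peptide receptor, and Csf3r (-0.90), the receptor of Csf3. After CuO NH3 40 the count was 10 higher, among them Mpo (0.62) and Camp (1.20), and the same 2 lower, Csf3r at -0.90 and Fpr1 at -1.16. After CuO PEG 40, 1 marker was higher, Lcn2 (2.66). Over all genes, 14.1% passed after CuO 40, 13.2% after CuO NH3 40 and 2.23% after CuO PEG 40. Ly6g was the listed marker that was not measured. The summed level of the list was 16.24 to 16.60 in PBS, 16.87 to 17.25 in CuO 40, 16.73 to 17.29 in CuO NH3 40 and 16.66 to 16.77 in CuO PEG 40. Markers of monocytes and inflammatory macrophages rose too, 6 of 7 after CuO 40 and 5 of 7 in OVA controls. How much of any ligand's or the receptor's change goes with the numbers of these cells was not tested.

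**Figure D3:**
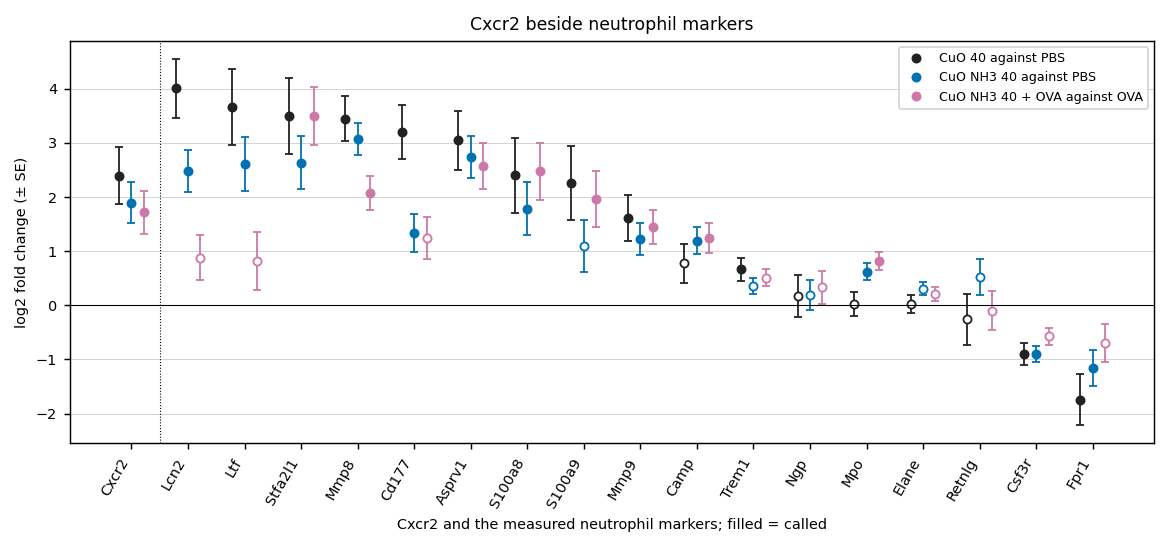
Log2 change (y axis, ± SE) of Cxcr2, left of the dotted line, and of the 17 measured neutrophil markers in 3 comparisons; filled points passed the test. Cxcr2 and markers such as Mmp8 and Stfa2l1 lie above 0 in all 3, whereas Csf3r and Fpr1 lie below 0 in all 3 and passed in the PBS-challenged pair.

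Of the other marker lists, after CuO 40 against PBS, endothelial genes were lower in 4 of 5, T cell genes in 3 of 6 and B cell genes in 3 of 4, with none higher. Fibroblast genes were higher in 3 of 5 and lower in 1. Alveolar macrophage genes were higher in 1 and lower in 2 of 8, alveolar type 2 genes higher in 1 and lower in 1 of 8, alveolar type 1 genes higher in 1 and lower in 1 of 4 measured, ciliated cell genes higher in 1 and lower in 1 of 4, and club cell genes lower in 1 of 4. Eosinophil and platelet genes did not pass. These counts stand where 14.1% of all genes passed, and the smaller ones are not read as changes of a cell type. The type 2 cell list, whose cells are among the epithelial sources of Cxcl5 and Cxcl15, kept a summed level of 18.71 to 18.84 in CuO 40 beside 18.50 to 18.86 in PBS, and was at 19.04 to 19.26 in CuO PEG 40. Their part in the ligand values was not tested.

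Csf3 gave no measured change. Its mean level was 5.60 ± 0.07 in PBS and between 5.51 and 6.09 in the exposed PBS-challenged groups. The highest of these was CuO NH3 40, at 5.86, 5.95 and 6.47, all above the PBS maximum of 5.67. The fit gave it an adjusted p of 0.00439, but the change was under the limit of 0.58 and the probe was not well above background in any sample of either group, so no size is given for it. CuO NH3 40 + OVA, the group with the single sample above background, was at 5.94, 6.19 and 6.20, with an adjusted p of 0.142.

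In OVA-challenged mice, where the controls were already high for Cxcl1, Cxcl3 and Cxcl5, few further increases passed. Against the OVA controls, which all 12 comparisons share, 6 of 84 differences passed, all increases, and 26 had an unadjusted p under 0.05. OVA replicates 1 to 4 were on the slides of CuO and CuO COOH, and replicates 5 to 8 on those of CuO NH3 and CuO PEG. By material at 2.5, 10 and 40 μg, CuO raised 0, 0 and 1 of the 7 genes where 0%, 0.266% and 1.61% of all genes passed. CuO COOH raised 0, 2 and 0, against 0.0349%, 0.663% and 3.84%. CuO NH3 raised 0, 2 and 1, against 0.917%, 2.51% and 3.94%. CuO PEG raised 0, 0 and 0, against 0.00436%, 0% and 0.589%. In the fit with hybridisation, CuO 2.5 + OVA rests on 1 sample, since the other 2 were alone on their arrays.

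Cxcl2, the ligand that OVA did not raise, was raised by CuO 40 + OVA. The samples read 6.68, 7.29 and 7.50 against 5.99 to 6.41 in OVA, without overlap, with a change of 2.09 (SE 0.35, adjusted p = 0.00254) that was 0.89 with slide and position as terms and still passed. It did not pass without replicate 1 (1.82) or replicate 2 (1.97) of the exposed group. CuO COOH 10 + OVA (6.53, 6.92 and 7.54) rose by 1.02 (SE 0.24, adjusted p = 0.0419), which did not pass under those terms (0.73). That change passed in 5 of the 11 fits that left out 1 sample, and came to 0.63 without its replicate 3 and to 1.65 without its replicate 1 or OVA replicate 2. Cxcl1 rose after CuO NH3 10 + OVA, at 10.61, 10.68 and 10.96 above an OVA maximum of 10.29, by 1.50 (SE 0.42, adjusted p = 0.0449), or 1.10 without passing with slide and position. It passed in 5 of 11 fits that left out 1 sample, and was 0.61 without its replicate 3 or OVA replicate 7, which share an array. Cxcl5 rose in the same group, at 10.84, 10.85 and 11.04 above an OVA maximum of 10.58, by 2.74 (SE 0.53, adjusted p = 0.00622), or 1.46 without passing. It passed in 9 of 11 such fits, and was 1.72 without either of the same 2 samples. CuO 40 + OVA had the highest Cxcl1 mean of all groups, at 10.34, 10.83 and 11.22 and above all OVA samples, but at 1.91 (SE 0.54, adjusted p = 0.0728) it did not pass, whereas with slide and position as terms it was 1.15 and did.

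Cxcl3 stood apart from the other ligands in these mice, since the OVA controls themselves had the highest mean of the 26 groups, 7.83 ± 0.37. None of the 12 exposed groups had a higher mean, and 9 of the 12 fitted differences were below 0, from -0.94 (CuO COOH 40, SE 0.38, adjusted p = 0.14) upward, with 0 passing. That value was -0.52 with slide and position as terms. At an unadjusted p under 0.05 in the limma fit the count was 1 of 12. The exposed samples ran from 6.74 to 8.35 and the OVA samples from 7.33 to 8.47. CuO PEG 10 + OVA was the single group whose samples, at 7.01, 7.23 and 7.25, all lay below the OVA range, which they overlapped before the batch terms were removed, with a difference of -0.57 (SE 0.46, adjusted p = 1).

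Cxcr2 rose after CuO COOH 10 + OVA (9.38, 9.78 and 10.06, a change of 1.66, SE 0.36, adjusted p = 0.0279) and CuO NH3 40 + OVA (8.96, 9.97 and 10.30, a change of 1.72, SE 0.40, adjusted p = 0.0118). The OVA samples lay between 8.03 and 8.71, below all of these. Besides these groups, the samples of CuO 40, CuO COOH 2.5 and 40, CuO NH3 2.5 and 10, and CuO PEG 10 and 40 with OVA also lay above every OVA sample without passing, though CuO COOH 2.5 + OVA overlapped them before the batch terms were removed. These groups share the same OVA samples, and how many of all genes separate in this way was not counted, so no rise is read from it. Neutrophil markers were higher in 4 of 17 after CuO COOH 10 + OVA, in 7 after CuO 40 + OVA and in 8 after CuO NH3 40 + OVA, with none lower. Over all genes, 0.663%, 1.61% and 3.94% passed in the same order. The summed neutrophil level was 16.01 to 16.28 in OVA and 16.51 to 17.45 in CuO NH3 40 + OVA. The increase of Cxcr2 after CuO NH3 40 + OVA was 1.10 and did not pass when its replicate 2 was left out, and that after CuO COOH 10 + OVA passed in 7 of 11 fits that left out 1 sample.

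**Figure D4:**
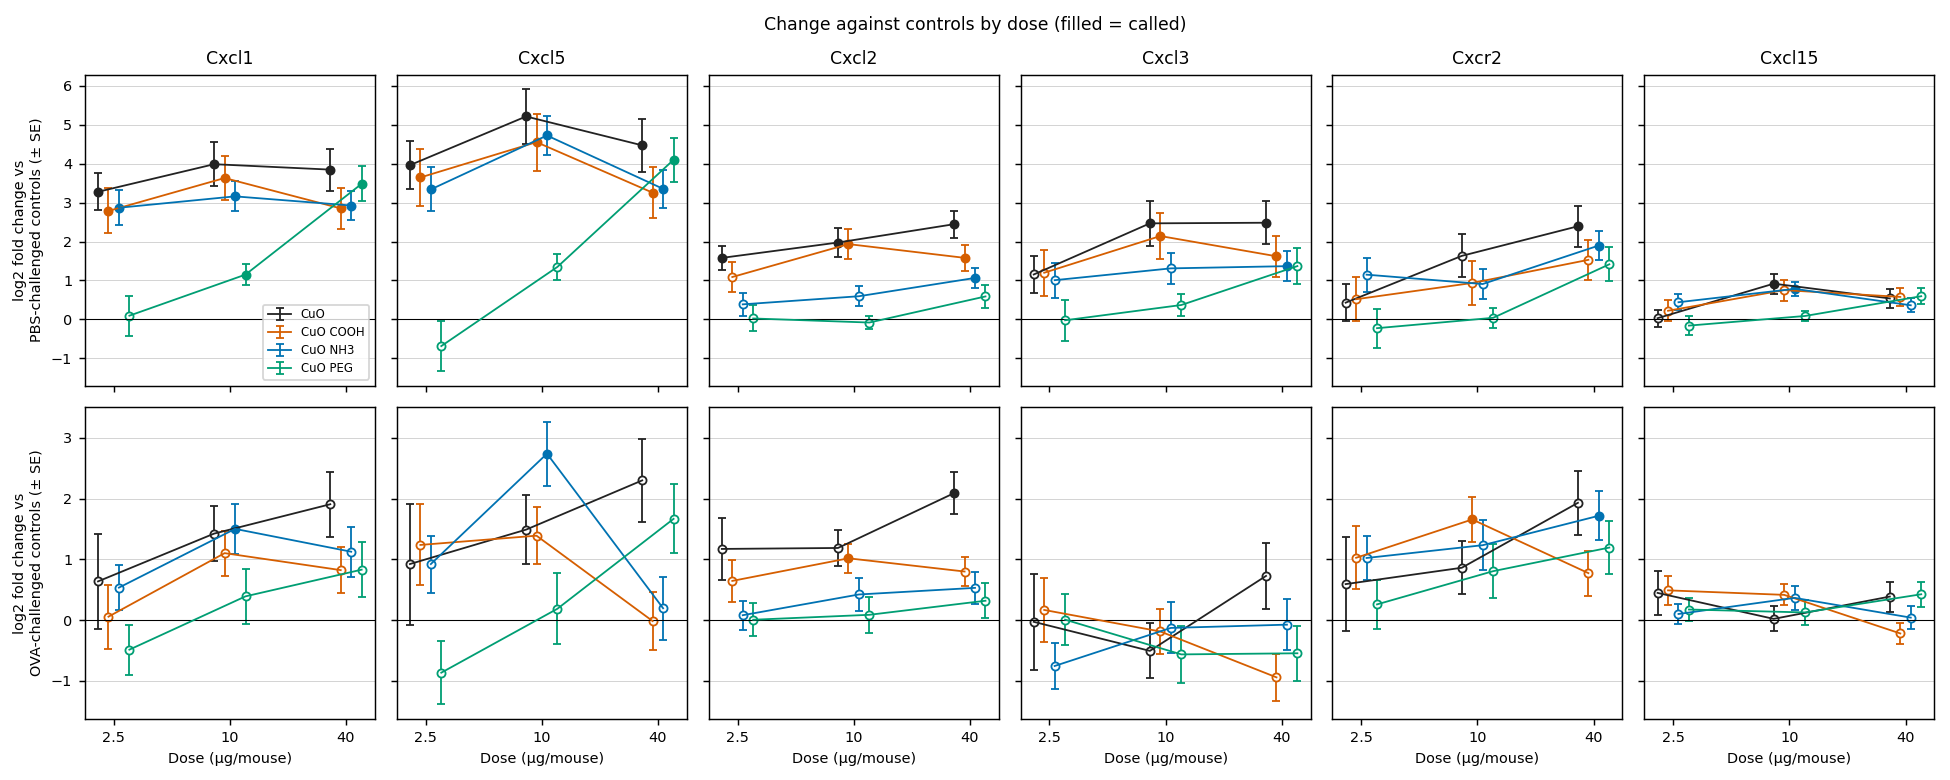
Log2 change against the PBS controls (upper row) or OVA controls (lower row) on the y axis, ± SE, by dose in μg per mouse on the x axis, 1 colour per material and 1 column per gene; filled points passed the test. In the upper row Cxcl1 is filled at every dose except 2.5 μg of CuO PEG and the CuO PEG line climbs with dose, and in the lower row 6 points are filled.

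Dose was tested directly as 40 against 2.5 μg of the same material. Over 8 such comparisons and 7 genes 2 of 56 differences passed, where 2.19% of all genes passed over the same comparisons. Both were of CuO PEG in PBS-challenged mice, where 4.37% of all genes passed. Cxcl1 was higher by 3.39 (SE 0.50, adjusted p = 0.000186), with samples of 10.27 to 10.53 against 7.62 to 7.80. Cxcl5, at 9.34 to 10.25 against 5.74 to 6.11, was higher with an adjusted p of 6.58e-05 in the limma fit. Its size is given as a bound, at least 11.4-fold, because no CuO PEG 2.5 sample was well above background. The bound rests on mean levels before removal of the batch terms, and the adjusted p does not belong to it. Neither the Cxcl1 nor the Cxcl5 difference passed when CuO PEG 2.5 replicate 3 was left out. For the other materials no difference of Cxcl1 between the ends of the dose range passed. The fitted difference was 0.57 for CuO (95% interval -0.70 to 1.84), 0.07 for CuO COOH (-1.27 to 1.40) and 0.06 for CuO NH3 (-0.75 to 0.86). With slide and position as terms it was -0.30 for CuO and 0.89 for CuO COOH. Cxcl5 gave 0.51 (-1.11 to 2.12), -0.39 (-2.09 to 1.31) and 0.01 (-1.01 to 1.04) in the same order. All 3 changed sign with slide and position as terms, to -0.58, 0.21 and -0.30, so no direction can be given for them. The Cxcr2 dose differences did not pass, 1.96 for CuO (0.71 to 3.21, adjusted p = 0.0673) and 1.64 for CuO PEG (0.62 to 2.66, adjusted p = 0.0537). These were 1.11, which passed, and 0.54, which did not, with slide and position as terms. Under OVA none passed, with 4 of 28 at an unadjusted p under 0.05, and the largest was Cxcl5 for CuO PEG, 2.53 (1.16 to 3.90, adjusted p = 0.216), which passed at 2.13 with slide and position as terms.

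Materials that differ in surface group were compared at 10 and at 40 μg. Dye, slide and position were the terms, because CuO and CuO COOH shared no slide with CuO NH3 and CuO PEG. At equal mass the materials also differed in copper, and the study measured the smallest copper fraction in CuO PEG. Surface group and copper content cannot be told apart in these comparisons. Over 16 comparisons and 7 genes 6 of 112 differences passed, where 0.997% of all genes passed over the same comparisons. All 6 were lower after CuO PEG, and all were in PBS-challenged mice. At 10 μg, CuO PEG was below CuO NH3 in 4 genes, where 2.09% of all genes passed. Cxcl5 differed by -2.64 (SE 0.47, adjusted p = 7.6e-05), and the CuO PEG samples (7.47 to 8.80) did not overlap those of CuO NH3 (10.18 to 10.86). Cxcl1 differed by -1.35 (SE 0.34, adjusted p = 0.00559), Cxcl3 by -0.97 (SE 0.31, adjusted p = 0.0304) and Cxcl2 by -0.73 (SE 0.24, adjusted p = 0.0352). The Cxcl2 and Cxcl3 differences did not pass with hybridisation as a term, and passed in 3 and 2 of 8 fits that left out 1 sample. Against CuO at 10 μg, where 1.07% of all genes passed, CuO PEG was lower in 1 gene, Cxcl15 (-0.61, SE 0.16, adjusted p = 0.0304), which did not pass with hybridisation as a term and passed in 3 of 7 fits that left out 1 sample. Cxcl5 (-1.76, 95% interval -2.97 to -0.54, adjusted p = 0.123) and Cxcl1 (-1.11, -2.01 to -0.22, adjusted p = 0.203) did not pass there, and with hybridisation as a term they were -3.87, which passed, and -2.84, which did not.

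At 40 μg no ligand passed between CuO PEG and either CuO NH3 or CuO, and the differences at 10 and 40 μg were not tested against each other. Against CuO NH3 40, where 4.78% of all genes passed, Cxcl2 differed by -0.49 (95% interval -1.05 to 0.08) and Cxcl3 by -0.38 (-1.11 to 0.35). Cxcl1 had a difference with a 95% interval of -0.82 to 0.81 and Cxcl5 differed by 0.52 (-0.58 to 1.63), while Cxcr2 differed by -0.95 (SE 0.31, adjusted p = 0.0237), a difference that came to -0.48 without passing with hybridisation as a term, and to -0.63 without passing when CuO PEG 40 replicate 2 was left out. Neutrophil markers were lower in 9 of 17 and higher in 1 in that comparison. CuO PEG 40 against CuO 40 gave the same Cxcr2 difference, -0.95 (-1.65 to -0.25), without passing (adjusted p = 0.0607), and Cxcl2 was at -0.89 (-1.53 to -0.25, adjusted p = 0.0561), which was -1.86 and passed with hybridisation as a term. No difference of CuO COOH 40 or CuO NH3 40 from CuO 40 passed. Cxcl1 was at -0.23 (SE 0.38) and 0.12 (-0.82 to 1.07), and Cxcl5 at -1.08 (-2.12 to -0.03, adjusted p = 0.372) and -0.06 (-1.34 to 1.21). With hybridisation as a term the CuO NH3 values were -0.92 for Cxcl1 and -1.12 for Cxcl5, without passing. Under OVA no difference between materials passed for any of the 7 genes, 6 of 56 had an unadjusted p under 0.05 in the limma fit, and the lowest adjusted p was that of Csf3, near the floor, at 0.0944.

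**Figure D5:**
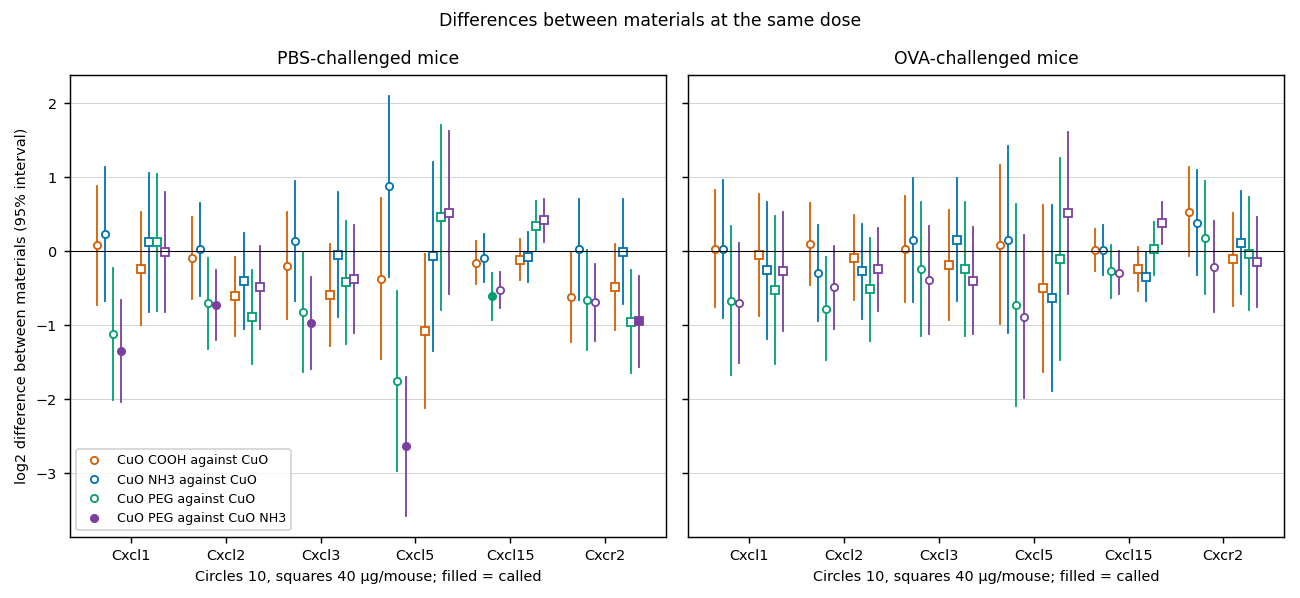
Log2 difference between materials at the same dose with its 95% interval (y axis) for 6 genes (x axis), PBS-challenged on the left and OVA-challenged on the right; circles are 10 and squares 40 μg per mouse, and filled points passed the test. The filled circles of CuO PEG against CuO NH3 run from -0.73 for Cxcl2 to -2.64 for Cxcl5, and no point is filled under OVA.

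Whether an exposure changed the genes by less under OVA was tested at 40 μg as the effect against OVA controls minus the effect against PBS controls. Over the 4 materials 3 of 28 such differences passed, where 0.959% of all genes passed, and all 3 were negative. For CuO COOH 40, where 1.14% of all genes passed, Cxcl5 differed by -3.27 (SE 0.78, adjusted p = 0.0386) and Cxcl3 by -2.57 (SE 0.63, adjusted p = 0.0428). For CuO NH3 40, where 1.58% passed, Cxcl5 differed by -3.16 (SE 0.68, adjusted p = 0.0115). In that case the change was 3.36 against PBS controls and 0.19 against OVA controls, and the OVA-challenged exposed samples of 9.17, 9.69 and 10.32 lay within the OVA range. Cxcl1 was negative for all 4 materials without passing, at -1.94 (95% interval -3.18 to -0.71) for CuO, -2.03 (-3.31 to -0.75) for CuO COOH, -1.80 (-2.90 to -0.70) for CuO NH3 and -2.66 (-3.97 to -1.34) for CuO PEG. The 4 share both control groups, so they are not independent. With slide and position as terms the CuO COOH value was -1.13 and did not pass, while the other 3 Cxcl1 values passed. Cxcl2, which OVA did not raise, had differences from -0.78 to -0.27, and those of Cxcr2 were from -0.76 to -0.18, of which 1 and 2 changed sign with slide and position as terms. With slide and position as terms the CuO COOH differences were -1.61 for Cxcl5 and -1.34 for Cxcl3 and did not pass, and that of Cxcl5 for CuO NH3 was -2.75 and did.

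Genes around the CXCR2 axis were counted from 5 lists. Of 14 inducers of the ligands (cytokines, Toll-like receptors and NF-kappaB genes), 6 rose and 0 fell after CuO 40 in PBS-challenged mice, with a median change of 0.40. Il6 rose by 2.54 (SE 0.39, adjusted p = 5.51e-05), Il1b by 2.05 (SE 0.50, adjusted p = 0.00502), Tnf by 1.35 (SE 0.36, adjusted p = 0.0106) and Myd88, the adaptor of interleukin 1 and Toll-like receptors, by 1.00 (SE 0.23, adjusted p = 0.00354). At 2.5 μg of CuO, where Cxcl1, Cxcl2 and Cxcl5 had risen, 1 inducer passed, Tnf at 1.42 (adjusted p = 0.0308). The share over all genes was 0.903% there. No inducer passed at 2.5 μg of CuO COOH, CuO NH3 or CuO PEG, where 0.358%, 0.96% and 0% of all genes passed. With shares this low, nothing is read from the counts at 2.5 μg. In OVA controls 2 of 14 rose, among them Il6 at 1.49.

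Of 14 other neutrophil chemoattractants and receptors, 7 rose and 2 fell after CuO 40. C3ar1 (2.34), the receptor of the complement fragment C3a, Pf4 (1.90), a platelet chemokine, and Ltb4r1 (1.90), the leukotriene B4 receptor, rose and Fpr1 (-1.74) fell. The same list had 7 risen and 2 fallen after CuO NH3 40, 6 and 0 after CuO COOH 40, and 2 and 0 after CuO PEG 40, where 13.2%, 10.3% and 2.23% of all genes passed. Of 8 haematopoietic growth factors and receptors, 1 rose (Csf2rb, 0.77) and 2 fell (Csf3r, -0.90, and Kitl, -0.88) after CuO 40. Among 9 adhesion genes 1 rose, Selp (1.38), which encodes P-selectin on platelets and endothelium. Among 5 feedback genes 1 rose, Socs3 (1.33), an inhibitor of cytokine and G-CSF signals. In OVA against PBS controls the last 4 lists had 5, 2, 3 and 2 genes higher and 0 lower, with Selp at 1.20 and Socs3 at 0.75. These counts stand where 14.1% of all genes passed after CuO 40 and 5.22% in OVA controls.

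As a description, the genes whose 26 group means ran closest to each member were sought among 15460 genes that were well above background in at least 45 samples. The points share slides, controls and normalisation. For Cxcl1 these were Steap4 (r = 0.95), Cd14 (0.94) and Ccl3 (0.94). For Cxcl5 they were Mab21l3 (0.91), Steap4 (0.90) and Muc4 (0.89), so Steap4 was listed for both. For Cxcl2 they were Orm1 (0.90), Sod2 (0.89) and Tuba1b (0.88), and for Cxcl3 Cpxm1 (0.88), Cxcl13 (0.87) and C1qb (0.86). For Cxcr2 they were Pram1 (0.96), Clec4e (0.95) and Asprv1 (0.95), the last of which is on the neutrophil list. Cxcl15 had lower values, Veph1 (0.80), Celsr1 (0.80) and Scd1 (0.79), and Csf3, near the floor, had Diras1 (0.81), Baiap2 (0.80) and Nkain1 (0.80). Within the 7 genes, Cxcl1 and Cxcl5 ran most alike (r = 0.90), followed by Cxcl1 and Cxcl2 (0.77) and Cxcl3 and Cxcl5 (0.77), whereas Cxcl2 and Cxcl3 had 0.44 and Cxcl15 and Cxcr2 0.22.

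The order of the 26 group means was mostly fine-grained. Out of 25 neighbouring pairs, the gap exceeded the larger of the pair's SDs in 1 for Cxcl1, 2 for Cxcl3, 2 for Cxcl5, 2 for Cxcl15 and 1 for Csf3, and in none for Cxcl2 and Cxcr2. For Cxcl1 that gap, 1.02, separated PBS (7.81) and CuO PEG 2.5 (7.69) from CuO PEG 2.5 + OVA (8.83) and all groups above it. For Cxcr2 the means ran without such a gap from 8.08 in CuO COOH 2.5 to 9.74 in CuO NH3 40 + OVA, and for Cxcl2 from 5.84 in CuO PEG 2.5 to 7.37 in CuO 40.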

How the data were processed

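Lung RNA, pooled from 2 RNA samples per channel, was hybridised to Agilent 8x60K mouse arrays, and the deposited scanner files hold foreground and background intensity per spot from Feature Extraction 12.0.2.2. The authors also deposited a table of processed log2 values, used here as an alternative. For the main values, the deposited median foreground intensity was taken as log2 without background subtraction and quantile normalised over the 89 samples. Control and outlier spots were left out, and probes were named through RefSeq accessions and averaged per gene (22911 genes). Group and replicate came from the sample labels. A model with 26 groups was fitted by limma 3.58.1 in R 4.3.3, with dye and hybridisation as terms (against controls, between doses, interaction) or dye, slide and array position (between materials). Genes were called where p, adjusted by Benjamini and Hochberg over all genes, was under 0.05 and the log2 change exceeded 0.58 in size. The fit was tested on simulated data.

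The members and gene lists were chosen with earlier results of these data known. All 7 members are named, with up to 4 genes per pathway list (largest absolute change after CuO 40) and the 3 genes most like each member. The alternatives were normexp with offset 50, loess with Aquantile, a filter on dim genes (3 samples), the deposited table, array as a random block, a replicate block, swapped batch terms, controls from shared slides alone, and fits that dropped 1 sample at a time. The number of arrays limits the precision.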

Additional observations from a re-analysis of the deposited data

Results flagged for a closer look

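Cxcl3 in PBS replicate 4 had a level of 6.47, apart from the other PBS samples, of which the nearest was at 5.87, a gap of 0.633 of the group's range. It was 1 of 28 combinations of gene and group large enough to be checked, and chance alone gives about 1 in 20.

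The effect of exposure differed between challenges in 3 cases by the test of the difference itself, as the change under OVA minus the change under PBS in the limma fit. The difference was -2.57 for Cxcl3 and -3.27 for Cxcl5 with CuO COOH 40, and -3.16 for Cxcl5 with CuO NH3 40. These passed in 7, 11 and 16 of the 21 fits that left out 1 sample each.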

How the results depend on the processing

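No value of a member that had passed the test changed sign under any alternative. Of 6359 alternative values of the members, 6001 kept their side of the threshold, of which 5559 also kept their sign and 442, none of which had passed, did not. A further 172 no longer passed and 186 newly passed. The 36 increases in PBS-challenged mice became 25 with controls of the same slides only and 48 with array as a random block. The 6 increases in OVA-challenged mice became 22 with array as a random block and 12 with swapped batch terms. The 6 differences between materials became 11 with array as a random block. The 2 dose differences became 12 with array as a random block and 12 with swapped terms. The 3 differences between challenges became 1 with normexp, 1 with loess and Aquantile, 1 on the same slides, 11 with array as a random block and 8 with swapped terms. The 3 changes between control groups became 1 on slides 4 to 6 only. The cause was not tested.

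With the replicate block, which has replicate number and dye as its batch terms and drops hybridisation, the counts were 44 in PBS-challenged mice, 19 in OVA-challenged mice, 11 between materials, 14 between doses and 8 between challenges, and 3 between control groups. The labels give the numbers no meaning. Samples with the same number deviated together at a mean r of 0.065, against -0.022 for other numbers, 371 of 984 same-number pairs were over 0.1, and 65 of 78 samples correlated best with their own number, a hint from the data and not the design.

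Leaving out 1 sample at a time gave 22 to 40 increases in PBS-challenged mice, 3 to 10 in OVA-challenged mice, 2 to 8 differences between materials, 0 to 5 between doses, 1 to 4 between challenges and 3 to 3 between control groups. Signal over background limits Csf3 everywhere and Cxcl2, Cxcl3 and Cxcl5 in PBS controls and CuO PEG 2.5.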
